A study of Mus musculus with 4 samples.

Results

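The genes described here repair broken and crosslinked DNA or signal that it is damaged. They were taken by symbol from the gene names in the spot files of a mouse microarray study, and there are 39 of them among the 29376 named genes on the array. By role they are 17 genes of homologous recombination, 10 of the Fanconi pathway, 5 of end joining and 7 of damage signalling. They are covered by 66 probes, and 25 members have several probes while 14 have 1. Every one of the 39 was above the scanner software's background threshold on all 4 arrays, by the probe that represents it, against 48.6% of all named genes that had a probe above background on every array.

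A double-strand break can be mended in more than one way. Homologous recombination copies the lost sequence from a sister chromatid and is therefore tied to the phases of the cell cycle in which DNA is copied, while non-homologous end joining ligates the ends directly and works throughout the cycle, in resting cells too. The Fanconi proteins unhook crosslinks that join the DNA strands and hand the break that results to recombination, and inherited loss of them leads to bone marrow failure. Damage signalling proteins sense the break, mark the chromatin around it and halt the cell cycle. In developing lymphocytes, end joining also seals the breaks made to assemble antigen receptor genes.

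All samples were bone marrow cells of mice labelled C57BL6/J and 7 weeks of age, with 1 array for each of 4 groups. LSK cells, named for their lack of lineage markers and their Sca-1 and c-kit antigens, are the fraction that holds the blood stem cells. They were sorted at day 0 from healthy control mice and at day 10 from recipient mice. Cells labelled CD45 Neg, called stromal or niche cells in the labels, were sorted at the same days. The day 10 recipients had been exposed to 700 cGy of radiation and had received 30000 LSK cells. Per the labels, those donor cells carried the CD45.2 form of the leukocyte antigen and the recipients the CD45.1 form. The protocol names the stromal gate as CD45.1-negative and the sample titles as CD45-negative, so the form of the antigen that was gated on is not certain. The series' design text calls the sorted stem cells donor cells, and the number of mice behind each array is not given in the sources used here. The study asked which genes the niche cells express while the transplanted stem cells proliferate.

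No group has a second array, so there is no spread between mice for any value, no test was made, and every difference is between 2 arrays. A level is a log2 processed signal from which the 75th percentile of all probes on that array was taken away, so 0 marks that percentile. A difference of 1 log2 unit is 2-fold, and a gene is counted as higher or lower where its difference was at least that large, which is a size and not a test. Between 47.6% and 56.6% of 61190 probes were well above background, and the SD between spots of 1 probe on 1 array was 0.0835 to 0.106 log2 units. The gap between differences that are computed from single arrays cannot be set against any biological error.

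The sorts were checked against marker genes. All 10 markers of the LSK sort were above background on both LSK arrays, against 5 of 10 and 7 of 10 in CD45-negative cells at day 0 and day 10. In LSK cells 9 of the 10 were lower at day 10, where 50.8% of all genes were, with a median difference of -0.43. Of 7 measured in both sorts at day 10, 6 were higher in LSK cells. The other was Ly6a, with levels of 2.86 in LSK cells and 3.44 in CD45-negative cells. Ptprc, which encodes CD45, had levels of 4.18 and 4.25 in LSK cells and of 3.10 and 5.58 in the sort named for lacking it. All 15 red cell markers were above background in the CD45-negative sort on both days, and their summed level on the linear scale was 3849 at day 0 and 585 at day 10. In LSK cells that sum was 77.9 and 46.2. Stromal and bone markers in the CD45-negative sort numbered 9 of 10 above background at day 0 and 7 of 10 at day 10, with summed levels of 119 and 11.4. Markers of T and NK cells went the other way, from 6 of 13 above background and a sum of 7.16 to 12 of 13 and a sum of 134. Cd3g, Cd8a, Cd4, Gzma, Il2rb, Ncr1 and Cd247 were not above background at day 0, and at day 10 Cd4 was the one that still was not. In LSK cells 12 of 13 and 11 of 13 T and NK cell markers were above background, with sums of 93.3 and 78.8. Neutrophil marker sums were 631 and 694 in LSK cells and 1137 and 823 in CD45-negative cells. Plasma cell marker sums fell from 203 to 11.3 in LSK cells and rose from 3.83 to 214 in CD45-negative cells. In sorted bulk cells such as these, fewer cells of a type and less RNA per cell cannot be told apart.

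In LSK cells the repair genes were close to equal on the 2 days. None of the 39 members was 2-fold higher at day 10, where 1.45% of all genes measured on both arrays were, and none was 2-fold lower, where 2.66% were. The median difference, day 10 minus day 0, was 0.04 log2 units over the 39 members and -0.01 over all 16459 genes, and 30 of 39 members lay within 0.25 log2 units of 0. Of the 39, 26 were above 0 and 13 below, where 49.2% and 50.8% of all genes were. In CD45-negative cells the same genes spread widely and split by role. Of the 39, 4 were at least 2-fold higher at day 10, where 23.6% of all genes were, and 12 were at least 2-fold lower, where 17.8% were. All 4 that were higher belong to end joining. The 12 that were lower are 6 of homologous recombination, 4 of the Fanconi pathway and 2 of damage signalling. That the higher set held end joining genes alone rests on the processing. With normexp background correction Xrcc4 and Xrcc5 lay at 0.88 and 0.86, short of 2-fold, and the signalling gene Atr was above it at 1.33. The mean over a gene's probes also left Xrcc4 short of 2-fold, at 0.95, and put Atr above it. Scaling to the spike-in controls in place of the 75th percentile raised every CD45-negative difference by 3.13 log2 units. That put all 12 lower members above 0, with 38 of 39 members at least 2-fold higher at day 10 and 0 lower. Scaling to housekeeping genes moved the differences by -0.83, which left 0 members higher and 24 lower. Centring on the median gave 7 higher and 5 lower, with Atr and the recombination genes Rad50 and Rad52 among the 7.

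**Figure D1:**
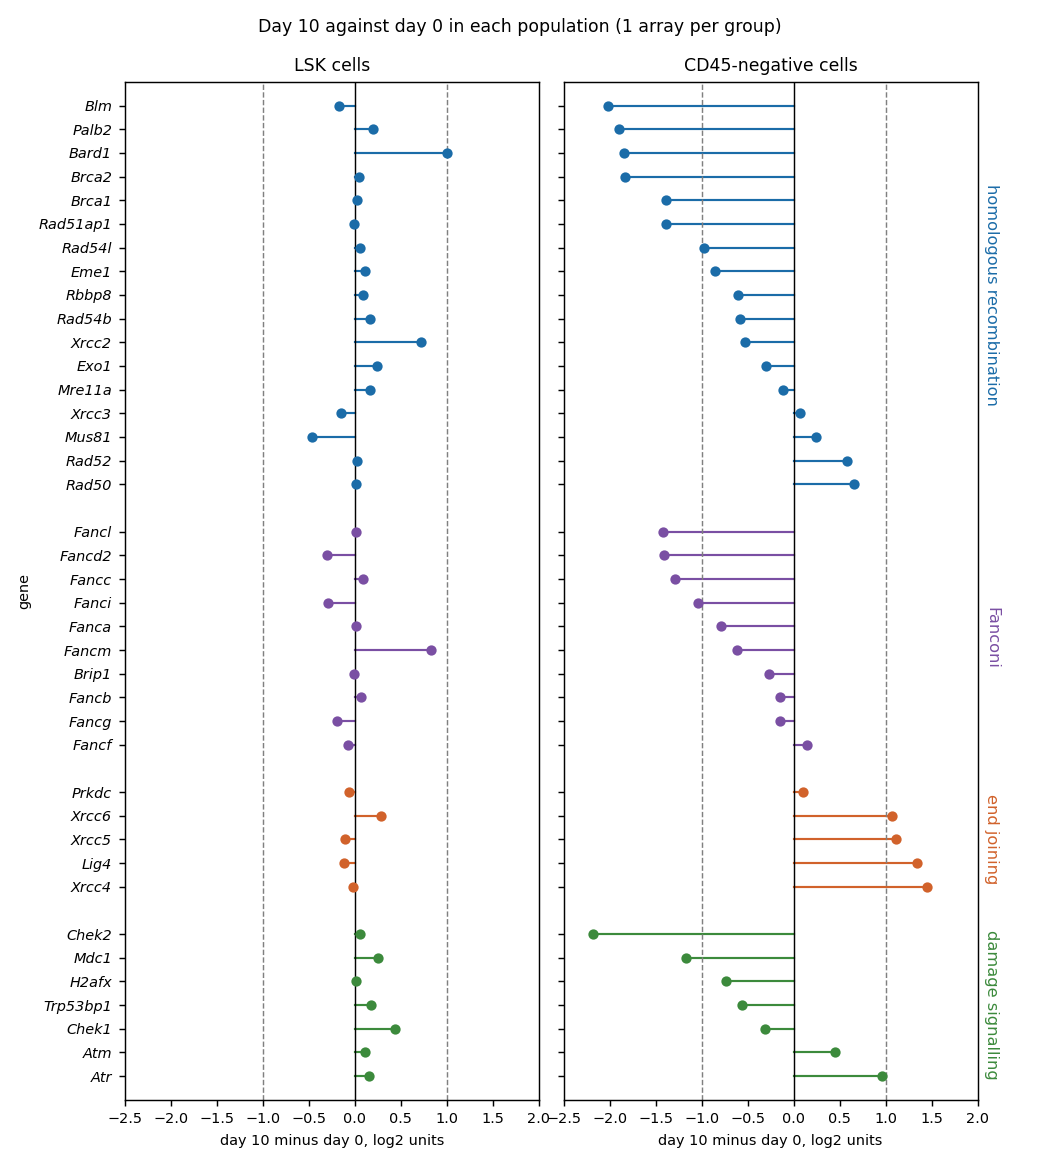
Day 10 minus day 0 in log2 units for each of 39 repair genes, in LSK cells on the left and CD45-negative cells on the right, coloured by role, with dashed lines at 2-fold and 1 array per group. Every LSK point lies between -0.47 and 0.997, while CD45-negative points reach from -2.18 to 1.45 with the 5 end joining genes at or above 0.10; scaling to spike-in controls would move all CD45-negative points up by 3.13 and every one above 0.

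The split between roles can be read without regard to any such shift, because a shift moves all genes of an array alike. The median difference in CD45-negative cells was 1.12 for end joining and -0.60 for homologous recombination, -0.70 for Fanconi genes and -0.57 for damage signalling, and the last 3 turned to 2.53, 2.43 and 2.56 under the spike-in scaling. Over all 14552 genes measured on both arrays the median was 0.19. The end joining median exceeded that of homologous recombination by 1.71 log2 units, and this gap ranged from 1.501 to 1.97 over the alternatives tried. Among all genes counted as higher or lower in CD45-negative cells, 57.0% were higher, and that share was 76.5% after centring arrays on their median, 98.8% with spike-in scaling and 13.1% with housekeeping gene scaling. In LSK cells the corresponding shares were 35.2%, 45.8%, 18.8% and 61.3%.

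Homologous recombination begins with the genes that license it. Brca1 encodes a ubiquitin ligase subunit that steers breaks towards recombination, and its level at the earlier and the later day was 1.14 and 1.17 in LSK cells and 2.92 and 1.53 in CD45-negative cells. Pairs of levels below keep that order. The CD45-negative day 0 array stood above the other 3, and the day 10 difference there was -1.39 (2.62-fold lower). Bard1, its ligase partner, had levels of -1.86 and -0.86 in LSK cells and of 0.43 and -1.41 in CD45-negative cells. It went in opposite directions in the populations, 0.997 log2 units (just short of 2-fold) higher in LSK cells and -1.84 in CD45-negative cells, and it has 1 probe. Spike-in scaling turned the latter to 1.29 and that of Brca1 to 1.74.

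Palb2 bridges Brca1 to Brca2, and Brca2 acts on the single-stranded DNA that resection exposes. The levels of Palb2 were -2.96 and -2.76 in LSK cells and -1.41 and -3.31 in CD45-negative cells, so that its CD45-negative day 0 level was the highest and its day 10 level the lowest of the 4. Brca2 had levels of 2.19 and 2.23 in LSK cells and of 3.76 and 1.93 in CD45-negative cells, again highest and lowest on the 2 CD45-negative arrays. Their differences in CD45-negative cells were close, -1.90 for Palb2 (3.73-fold lower) and -1.83 for Brca2 (3.55-fold lower), against 0.19 and 0.04 in LSK cells. With spike-in scaling the CD45-negative values became 1.23 and 1.30. A second Brca2 probe gave -1.93 in CD45-negative cells, while the other Palb2 probe was not above background there on either day. The first Brca2 probe and the single probe of Blm are shown, because both Brca2 probes give the difference and Blm has the largest one of the recombination group. They are 60 bases long and are given 5′ to 3′ as in the spot files.
Brca2 probe: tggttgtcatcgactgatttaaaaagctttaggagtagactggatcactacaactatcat
Blm probe: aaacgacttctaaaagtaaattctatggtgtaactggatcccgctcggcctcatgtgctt

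Blm encodes the helicase that dissolves recombination intermediates, and its loss causes Bloom syndrome. Its levels were 1.90 and 1.73 in LSK cells and 4.01 and 1.996 in CD45-negative cells. Of the 4 arrays the CD45-negative day 0 one stood apart, and the day 10 difference was -2.02 (4.05-fold lower, or 1.11 log2 units higher with spike-in scaling). Rad51ap1 encodes a protein that stimulates strand invasion. It had levels of -0.30 and -0.31 in LSK cells and of 1.79 and 0.41 in CD45-negative cells, and both CD45-negative arrays were above both LSK arrays. The difference was -1.38 in CD45-negative cells (1.75 with spike-in scaling) and -0.01 in LSK cells.

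The remaining recombination genes stayed within 2-fold between the days in both populations by their main probes, while a second probe of Rad54b gave -1.33 in CD45-negative cells. Rbbp8, which encodes the end resection factor CtIP, had levels of 3.11 and 3.19 in LSK cells and of 3.97 and 3.37 in CD45-negative cells. Its day 10 difference was -0.60 in CD45-negative cells, near the median of the group. Xrcc3, a recombination gene of the same family as Xrcc2, had levels of 0.01 and -0.14 in LSK cells and of -0.58 and -0.52 in CD45-negative cells, the difference nearest to 0 of its group at 0.07. Just short of 2-fold in CD45-negative cells were Rad54l at -0.98, a motor protein that remodels chromatin during strand exchange, and Eme1 at -0.85, a subunit of a structure-specific nuclease. Rad50 and Rad52 lay at 0.66 and 0.58 and were the 2 largest positive values of the group. The other 5 genes, Rad54b, Xrcc2, Exo1, Mre11a and Mus81, lay between -0.59 and 0.24. The positive values of Rad50 and Rad52 rest on the processing. They became -0.03 and 0.20 with normexp background correction, and -0.17 and -0.25 with housekeeping gene scaling. Of the 17 recombination genes, 13 were below 0 in CD45-negative cells, where 43.5% of all genes were, and with spike-in scaling none was.

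Partner proteins of 1 complex did not always go the same way. In CD45-negative cells the Brca1 and Bard1 differences were 0.45 log2 units apart and those of Brca2 and Palb2 0.07 apart. Mus81 at 0.24 and its nuclease partner Eme1 at -0.85 were 1.09 apart, and Rad50 at 0.66 and Mre11a at -0.12, both of the complex that first binds broken ends, were 0.78 apart. Over 12 pairs, which were chosen for known interactions or shared family with these results already known, 7 had differences of the same sign and 5 of opposite sign. Of all 39 members 27 were below 0 and 12 above, so unrelated members would often share a sign too. The count is therefore no result about partners. The opposite pairs include Atm with Chek2 and Atr with Chek1, paired as signalling kinases, and Xrcc2 with Xrcc3, paired by family. A shift of the arrays leaves the distance within a pair as it is, but not the signs. Background correction changed the distances too. With normexp correction Rad50 lay at -0.03 and Mre11a at 0.12, in the opposite order, and Brca2 at -1.48 and Palb2 at -1.19.

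Of the Fanconi genes, 4 were at least 2-fold lower in CD45-negative cells at day 10. Fancl encodes the ubiquitin ligase that activates the pathway, and its levels were 1.71 and 1.72 in LSK cells and 3.37 and 1.95 in CD45-negative cells. The CD45-negative day 0 array was again the high one, with a day 10 difference of -1.42 (2.67-fold lower) and of -0.93 by a second probe. The pair that this ligase modifies is Fancd2 and Fanci. Fancd2 had levels of -2.19 and -2.49 in LSK cells and of -0.67 and -2.08 in CD45-negative cells. Fanci had levels of 1.797 and 1.501 in LSK cells and of 3.25 and 2.21 in CD45-negative cells. Both were highest on the CD45-negative day 0 array, and their day 10 differences there were -1.41 and -1.04. In LSK cells they lay 0.0037 apart, at -0.30 and -0.30, by their main probes, but the second Fanci probe gave 0.59 there.

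Fancc, a part of the core complex that holds the ligase, had levels of 0.43 and 0.52 in LSK cells and of 0.91 and -0.38 in CD45-negative cells. Its CD45-negative day 10 level was the lowest of the 4, with a difference of -1.29 by 1 probe and -0.60 by the other. With spike-in scaling the differences of Fancl, Fancd2, Fanci and Fancc became 1.71, 1.72, 2.09 and 1.84. Fanca, a further core subunit, had levels of 2.70 and 2.71 in LSK cells and of 3.24 and 2.45 in CD45-negative cells, a difference of -0.79. A dimmer Fanca probe gave 0.16 there, the one case in CD45-negative cells of probes of a member with opposite signs. Fancf, another core subunit, had nearly level values of 0.82 and 0.75 in LSK cells and of 0.85 and 0.99 in CD45-negative cells.

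Fancf also shows the precision within an array. Its 2 probes carry the same 60-base sequence under different names, and their levels on the same array lay 0.0025 to 0.15 log2 units apart. The other Fanconi genes were Fancm, the helicase that anchors the core complex to DNA, at -0.62 in CD45-negative cells, Brip1, the helicase bound by Brca1, at -0.27, and Fancb and Fancg, both at -0.15. Fancg is less certain than its main probe makes it look, since 1 dimmer probe was above background in CD45-negative cells at day 0 alone and another at day 10 alone. Of the 10 Fanconi genes 9 were below 0 in CD45-negative cells, where 43.5% of all genes were, and 0 were at least 2-fold higher, where 23.6% were. With spike-in scaling all 10 were above 0.

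All 5 end joining members were above 0 in CD45-negative cells, where 56.5% of all genes were, although Prkdc turned below 0 under 2 of 12 settings, among them housekeeping gene scaling. The Ku proteins bind free ends first. Xrcc6, which encodes Ku70, had levels of 5.46 and 5.75 in LSK cells and of 5.97 and 7.04 in CD45-negative cells. Xrcc5, which encodes its partner Ku80, had levels of 0.13 and 0.03 in LSK cells and of -0.31 and 0.81 in CD45-negative cells. Both were highest on the CD45-negative day 10 array, and their differences from day 0 in that population, 1.07 (2.10-fold) and 1.12 (2.17-fold), lay 0.05 apart. A second Xrcc6 probe gave 1.41.

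Ligation is carried out by the DNA ligase Lig4, held by its scaffold Xrcc4. Lig4 had levels of 0.21 and 0.08 in LSK cells and of 1.79 and 3.13 in CD45-negative cells. Both CD45-negative arrays were above both LSK arrays, and its spread of 3.04 log2 units over the 4 arrays was the widest of all 39 members. The day 10 difference in CD45-negative cells was 1.34 (2.53-fold higher), and 1.45 by a second probe. Xrcc4 had levels of -1.36 and -1.38 in LSK cells and of -1.14 and 0.31 in CD45-negative cells. It had the largest positive difference of the 39 in CD45-negative cells, 1.45, but 0.45 by its second probe, short of 2-fold. Prkdc, which encodes the kinase that Ku recruits, had levels of -0.50 and -0.56 in LSK cells and of 0.29 and 0.39 in CD45-negative cells. By these levels it differed between populations more than between days, but that rests on the scaling. With spike-in scaling its CD45-negative day difference was 3.23. The LSK minus CD45-negative differences were then 0.85 at day 0 and -2.60 at day 10.

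In LSK cells the end joining genes lay between -0.12 and 0.29. In CD45-negative cells the positive sign of Xrcc4, Xrcc5, Xrcc6 and Lig4 held under each of the 12 settings tried, including housekeeping gene scaling, which left them between 0.24 and 0.62 and so short of 2-fold. The detection filters and the 1.5-fold threshold leave a member's difference as it is, so those settings could not turn a sign. The second Xrcc4 probe, at 0.45, is smaller in size than the housekeeping shift of -0.83. Probe sequences are shown for Xrcc5, for the second Xrcc6 probe, which gave 1.41, and for both Lig4 probes, the latter because 2 separate stretches of the transcript gave differences 0.11 apart.
Xrcc6 second probe: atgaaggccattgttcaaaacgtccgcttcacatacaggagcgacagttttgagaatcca
Xrcc5 probe: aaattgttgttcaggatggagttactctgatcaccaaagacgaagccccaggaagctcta
Lig4 brighter probe: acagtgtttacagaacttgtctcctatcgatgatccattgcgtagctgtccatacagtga
Lig4 second probe: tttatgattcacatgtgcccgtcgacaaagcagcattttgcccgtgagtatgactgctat

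**Figure D2:**
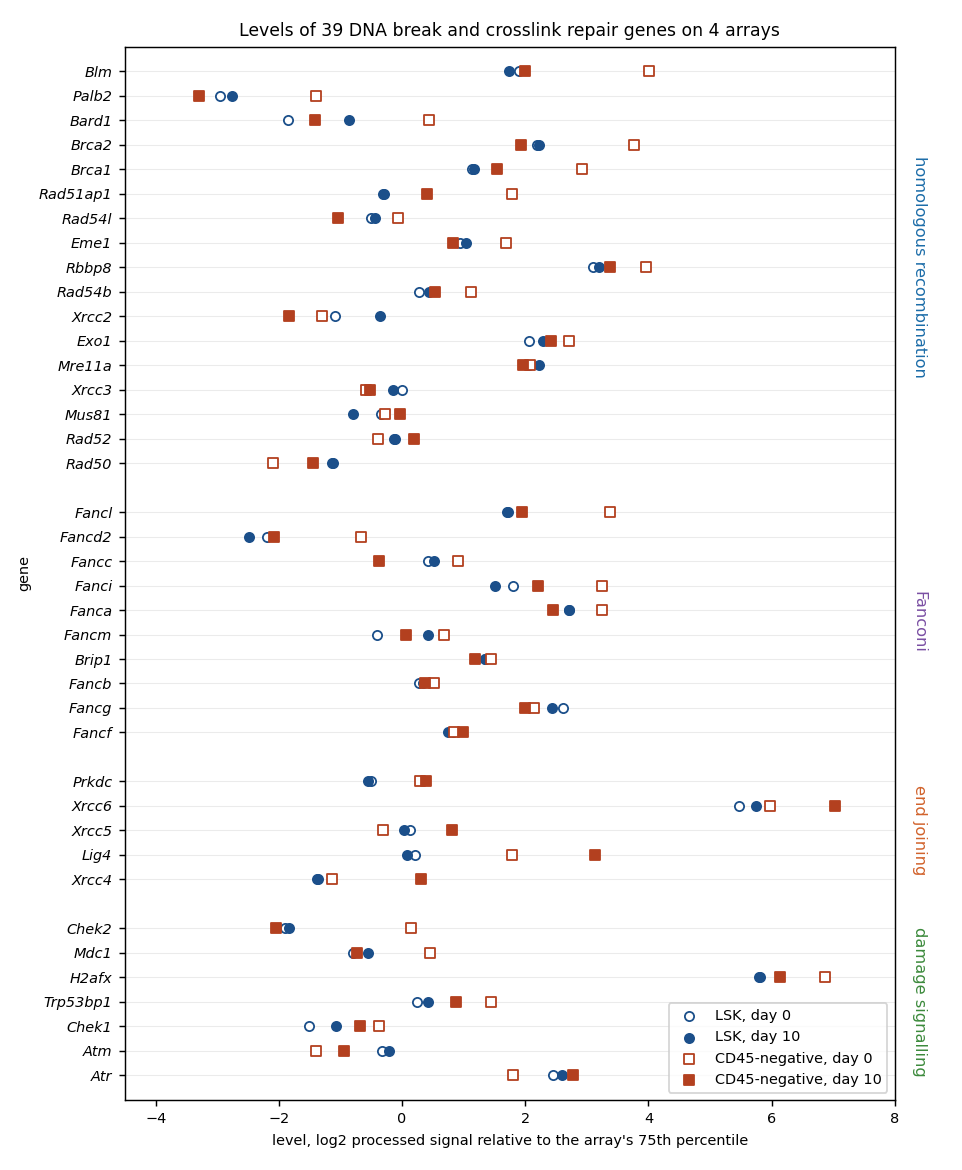
Level of each of 39 repair genes on the 4 arrays, in log2 processed signal relative to the array's 75th percentile, with circles for LSK and squares for CD45-negative cells, open at day 0 and filled at day 10. The open square is the rightmost point for 24 genes, most of them in recombination and Fanconi roles, while the filled square is rightmost for the 5 end joining genes; with spike-in scaling the day 10 squares would move 3.13 to the right against the day 0 squares.

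Damage signalling genes did not all go one way in CD45-negative cells. Chek2 encodes the checkpoint kinase downstream of Atm, and its levels were -1.90 and -1.83 in LSK cells and 0.14 and -2.04 in CD45-negative cells. The CD45-negative day 0 level stood alone above 3 similar values, and the day 10 difference of -2.18 (4.54-fold lower) was the largest of all 39 members in size, with -3.14 by a second probe and 0.95 for the first under spike-in scaling. Both Chek2 probes are shown, because separate stretches of the transcript gave the same direction.
Chek2 brighter probe: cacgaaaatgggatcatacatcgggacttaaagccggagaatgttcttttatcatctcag
Chek2 second probe: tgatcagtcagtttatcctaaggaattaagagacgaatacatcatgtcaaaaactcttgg

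Mdc1 encodes the scaffold that binds the marked histone around a break. Its levels were -0.80 and -0.55 in LSK cells and 0.45 and -0.73 in CD45-negative cells, where the difference was -1.17 (2.25-fold lower, or 1.96 log2 units higher with spike-in scaling). H2afx encodes that histone, H2AX, and had levels of 5.80 and 5.81 in LSK cells and of 6.87 and 6.14 in CD45-negative cells. Its difference was -0.73 and its second probe gave -0.50. Trp53bp1, whose product 53BP1 shields ends from resection and so favours end joining, lay at -0.57 by its brighter probe and at -1.18 by the other.

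In CD45-negative cells the kinases that start the signal had higher day 10 differences than the kinases that relay it. No shift of the arrays can change that order. Atm, the kinase that responds to double-strand breaks, lay at 0.45 in CD45-negative cells (-0.38 with housekeeping gene scaling) and Atr, which responds to single-stranded DNA at stalled forks, at 0.96 (1.95-fold, just under 2-fold). Chek1 relays the signal of Atr, and its levels were -1.51 and -1.07 in LSK cells and -0.38 and -0.69 in CD45-negative cells. Its difference of -0.31 was the nearest to 0 of the group, but a second probe gave -1.03. Atm and Chek2 were thus 2.63 log2 units apart in their CD45-negative difference, and Atr and Chek1 1.27 apart. In LSK cells the same pairs were 0.05 and 0.28 apart, and there Chek1 at 0.44 lay above Atr at 0.16.

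In LSK cells all 7 signalling genes were above 0 by their main probes, where 49.2% of all genes were, but by small amounts of 0.01 for H2afx to 0.44 for Chek1. Second probes gave -0.34 for Atm and -0.01 for H2afx, while other probes of Atr, Chek1, Chek2 and Trp53bp1 stayed above 0. The median of 0.16 over the 7 genes became -4.66e-05 with spike-in scaling, so the direction rests on the scaling. The 3 LSK members beyond 1.5-fold were Bard1 at 0.997, Fancm at 0.83 and Xrcc2 at 0.72, all higher at day 10, and 0 were lower by that much. Of all genes 6.22% were higher and 7.46% lower to that extent, so the count of higher members lies near the share of all genes. Of these Fancm had a second probe at 0.50. Xrcc2 had a second probe at -0.75, of opposite sign. Fanca had 0.01 by its main probe and 1.41 by its dimmer one. Among the 24 members with several probes measured in LSK cells, 12 had probes of opposite sign and 2 had probes more than 1 log2 unit apart. In CD45-negative cells 22 members had several measured probes, of which 1 had opposite signs and 0 were more than 1 log2 unit apart. Between populations, probes had opposite signs in 7 of 23 members at day 0 and in 10 of 23 at day 10, and lay more than 1 log2 unit apart in 1 and in 8.

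**Figure D3:**
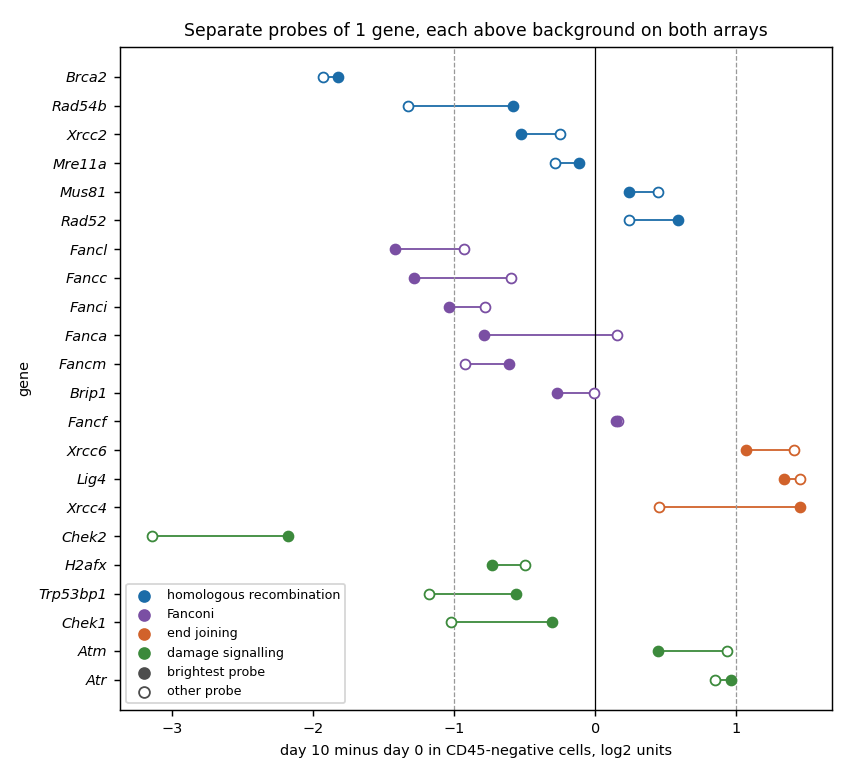
Day 10 minus day 0 in CD45-negative cells, in log2 units, for the 22 repair genes with several probes above background on both arrays, with the brightest probe filled, other probes open and a line between them. In 21 of 22 genes the probes lie on the same side of 0, Fanca being the exception; scaling to spike-in controls would move all points up by 3.13.

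Mus81, the nuclease partner of Eme1, has probes that overlap by 45 bases and differ by 1 base within the overlap, written T31C with positions counted from the 5′ end of the first probe. The 2 sequences are shown with that base in capitals, since they measure nearly the same stretch.
Mus81 brighter probe: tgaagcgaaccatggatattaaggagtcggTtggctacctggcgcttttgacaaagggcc
Mus81 second probe: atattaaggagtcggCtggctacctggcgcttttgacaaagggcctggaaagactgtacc
Their day 10 differences were 0.24 and 0.44 in CD45-negative cells and -0.47 and -0.65 in LSK cells, where the first was the lowest of the 39 members. These probes overlap, so they are not independent measurements of the gene.

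Other genes of the same pathways were compared from lists of textbook members. Of 42 measured genes of break and crosslink repair outside the 39, 2 were at least 2-fold higher and 8 lower in CD45-negative cells at day 10, with a median of -0.48, which the spike-in shift of 3.13 would turn positive. The share of all genes was 23.6% higher and 17.8% lower, so the count of lower genes in that list lies near it. Dclre1a, a nuclease of crosslink repair, was at -2.10 and Polq, the polymerase of microhomology-mediated joining, at -1.85. Nhej1, an end joining factor outside the 5 members and picked out after its value was seen, was at -0.65, below all 5 of them. The other excision pathways differed in sign. Base excision and single-strand break repair had 5 higher and 2 lower of 17 with a median of 0.84, led by Neil3 at -1.91 and Neil1 at 1.85. Nucleotide excision repair had 2 higher and 1 lower of 17 with a median of 0.39, and mismatch repair 0 higher and 1 lower of 7 with a median of 0.32. The housekeeping shift of -0.83 is larger in size than the medians of the last 2 lists and nearly as large as the base excision median of 0.84. The base excision counts lie near the shares of all genes given above. In the last 2 lists Xpc, which recognises damage in nucleotide excision repair, was at 1.65, and the mismatch repair genes Pms2 and Msh3 were at -1.28 and 0.77.

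Lists of proliferation genes were lower alongside the recombination and Fanconi genes, except with spike-in scaling, whose shift of 3.13 exceeds the size of both lists' medians. In CD45-negative cells 11 of 34 DNA replication and G1/S genes were at least 2-fold lower at day 10 and 0 higher, with a median of -0.77, and 23 of 29 G2/M and mitosis genes were lower and 0 higher, with a median of -1.56. Mki67, a marker of cycling cells, had levels of 6.02 and 6.19 in LSK cells and of 8.96 and 6.70 in CD45-negative cells, highest on the same array as most repair members. Ccne2 was at -2.94, Tk1 at -2.21 and Ube2c at -2.43. Red cell markers were lower at day 10 in 15 of 15 with a median of -4.06, led by Alas2 at -5.51, and T and NK cell markers were higher in 6 of 6 measured with a median of 3.37, led by Cd3d at 6.64. B cell markers were at least 2-fold higher in 5 of 7 with a median of 1.84. The spike-in shift leaves the red cell median below 0. The part of cell type or of proliferation in the differences of the repair genes was not tested. Among p53 targets 6 of 18 were at least 2-fold higher and 3 lower, against 23.6% and 17.8% of all genes, with Cdkn1a at 1.42, Pmaip1 at 2.59 and Gadd45a at -2.33.

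**Figure D4:**
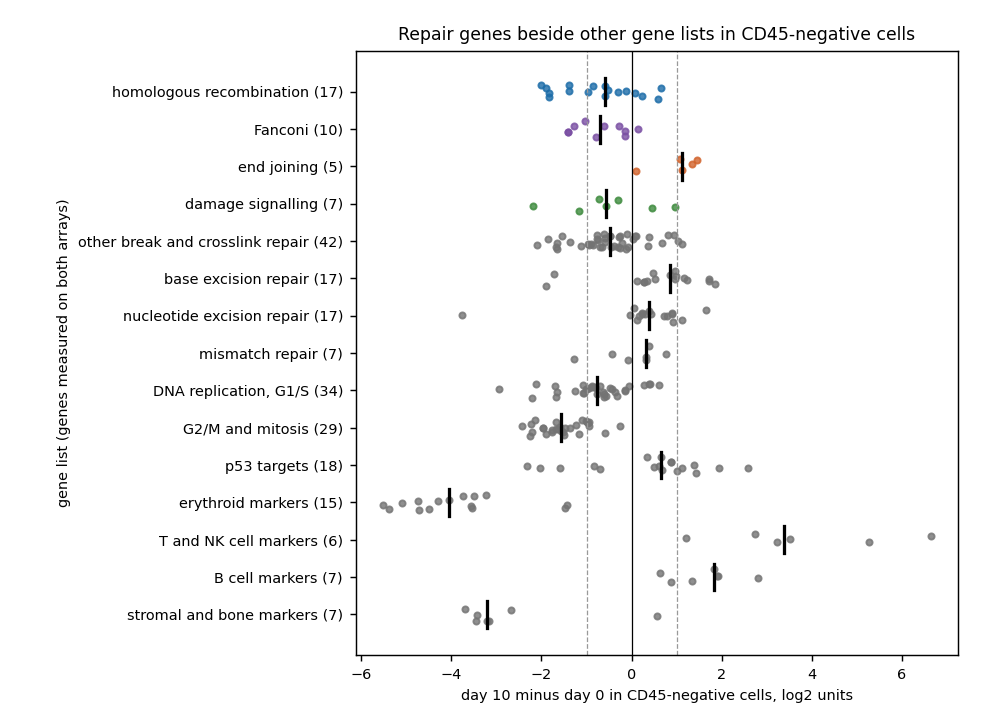
Day 10 minus day 0 in CD45-negative cells, in log2 units, for the genes of each list above background on both arrays, with a bar at the list's median and dashed lines at 2-fold. The 4 upper lists are the repair roles. Among the other plotted lists, the end joining median of 1.12 lies between base excision repair at 0.84 and B cell markers at 1.84. The recombination median of -0.60 lies between other break and crosslink repair at -0.48 and replication at -0.77. Scaling to spike-in controls would raise all of these by 3.13.

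The DNA in front of these genes was searched for motifs of cell cycle genes. RefSeq start sites of build GRCm38.p6 were matched for 31 of 39 members, with 33 promoter windows of 300 bases, since Lig4 and Rad54l have more than 1. Rad54b, Fancd2, Xrcc2, Exo1, Rbbp8, Rad50, Prkdc and H2afx have no window in the table. The E2F-like form TTTCCCGC, read on both strands, stands in 6 of 33 member windows (18.2%) and in 351 of 32851 windows in all (1.07%). The forms TTTCGCGC and TTTGGCGC are in 0 member windows, and in 0.323% and 0.514% of all. The CCAAT motif is in 57.6% of member windows and 37.4% of all, and the cell cycle homology forms TTTGAA and TTCGAA are in 9.09% and 19.2%. None of these motifs shares bases with another in the windows printed below. Median GC content was 59.7% in member windows and 52.7% in all.

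The 6 windows with TTTCCCGC belong to Brca2, Bard1, Chek2 and Mdc1, which were at least 2-fold lower in CD45-negative cells at day 10, to Xrcc6, which was at least 2-fold higher, and to Fancg, which was within 2-fold. The 250 bases before the start site are shown for the first 5, 5′ to 3′ on the gene's strand, because the same motif stands before genes on both sides of the split. Capitals mark TTTCCCGC or its reverse complement GCGGGAAA, and where present CCAAT or ATTGG and TTTGAA. A match of letters is a description and not evidence that a factor binds there.
Brca2, chr5:150522371-150522620, plus strand: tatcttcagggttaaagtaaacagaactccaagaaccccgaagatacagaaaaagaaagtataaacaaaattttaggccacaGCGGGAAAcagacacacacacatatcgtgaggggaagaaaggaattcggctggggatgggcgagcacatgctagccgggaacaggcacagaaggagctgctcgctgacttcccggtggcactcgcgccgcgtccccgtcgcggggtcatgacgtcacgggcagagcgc
Bard1, chr1:71102973-71103222, minus strand: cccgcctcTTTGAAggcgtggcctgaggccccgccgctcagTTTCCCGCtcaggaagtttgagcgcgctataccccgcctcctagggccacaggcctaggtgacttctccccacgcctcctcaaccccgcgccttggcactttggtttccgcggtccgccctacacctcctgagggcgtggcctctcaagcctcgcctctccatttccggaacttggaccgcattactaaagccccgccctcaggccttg
Chek2, chr5:110839733-110839982, plus strand: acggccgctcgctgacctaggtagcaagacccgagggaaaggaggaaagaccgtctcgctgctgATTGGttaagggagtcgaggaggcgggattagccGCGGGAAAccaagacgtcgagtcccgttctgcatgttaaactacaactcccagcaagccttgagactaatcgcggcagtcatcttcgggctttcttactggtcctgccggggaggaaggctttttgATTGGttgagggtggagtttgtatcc
Mdc1, chr17:35841248-35841497, plus strand: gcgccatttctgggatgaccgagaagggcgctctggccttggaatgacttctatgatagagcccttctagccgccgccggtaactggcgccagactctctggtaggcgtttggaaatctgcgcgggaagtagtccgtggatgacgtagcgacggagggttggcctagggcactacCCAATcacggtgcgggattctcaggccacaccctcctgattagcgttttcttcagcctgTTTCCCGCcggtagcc
Xrcc6, chr15:82016119-82016368, plus strand: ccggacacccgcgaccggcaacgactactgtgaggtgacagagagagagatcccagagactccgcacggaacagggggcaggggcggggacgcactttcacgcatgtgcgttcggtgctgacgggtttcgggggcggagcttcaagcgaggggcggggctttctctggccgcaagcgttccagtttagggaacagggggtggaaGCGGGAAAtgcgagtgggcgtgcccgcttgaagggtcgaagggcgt
The motif lies at -168 to -161 from the start site in Brca2, -209 to -202 in Bard1, -152 to -145 in Chek2, -16 to -9 in Mdc1 and -46 to -39 in Xrcc6. Those of Brca2, Chek2 and Xrcc6 are on the strand opposite to the gene.

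The populations were also compared within each day, LSK minus CD45-negative, on the same arrays as above. At day 0, 1 of 39 members was at least 2-fold higher in LSK cells, where 21.8% of all genes were, and 16 were at least 2-fold lower, where 17.7% were. Of the 39, 31 were below 0 and 8 above, where 47.1% and 52.9% of all genes were. The one that was 2-fold higher was Atm at 1.07. The 16 that were lower were led by Bard1 at -2.29, Blm at -2.11, Rad51ap1 at -2.09 and Chek2 at -2.04, and 6 of them belong to recombination, 4 to the Fanconi pathway, 1 to end joining and 5 to signalling. Just short of 2-fold were Rad50 at 0.96 and Rbbp8 at -0.86. With spike-in scaling the count became 18 higher and 0 lower, so which population was higher rests on the scaling. Over all genes called, 55.2% were higher in LSK cells, against 94.6% with spike-in and 29.7% with housekeeping gene scaling.

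At day 10, 1 of 39 was at least 2-fold higher in LSK cells, where 11.0% of all genes were, and 3 were lower, where 12.7% were. Of the 39, 17 were above 0 and 22 below, where 50.2% and 49.8% of all genes were. Xrcc2 was the higher one at 1.47, but its second probe gave -0.01. The lower ones were end joining genes, Lig4 at -3.04 (8.24-fold, and -2.80 by its second probe), Xrcc4 at -1.69 (0.23 by its second probe) and Xrcc6 at -1.28 (-2.08 by its second probe). Just short of 2-fold were Prkdc at -0.95 and Fancc at 0.90, whose second probe gave -0.49. With spike-in scaling 0 were higher and 36 lower. Over all genes called 46.5% were higher in LSK cells, and this was 17.95% with median centring, 33.9% with cyclic loess, 1.003% with spike-in scaling and 82.5% with housekeeping gene scaling.

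For 26 of 39 members the populations were closer at day 10 than at day 0, as were 61.5% of all genes above background on the 4 arrays, so the members' count lies near that of the array as a whole. It held for 12 of 17 recombination genes, 7 of 10 Fanconi genes, 7 of 7 signalling genes and 0 of 5 end joining genes. With spike-in scaling the count was 10 of 39. The CD45-negative day 0 array had the highest level of 24 of 39 members, where it had the highest level of 31.1% of genes above background on all arrays. No end joining gene was among those 24. The CD45-negative day 10 array had the highest level of 9 of 39 members, all 5 end joining genes among them, where it had that of 30.1% of genes. The CD45-negative day 0 array also had the smallest share of probes above background, the highest summed level of red cell markers and the highest Mki67 level, and their part in the order of the arrays was not tested.

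**Figure D5:**
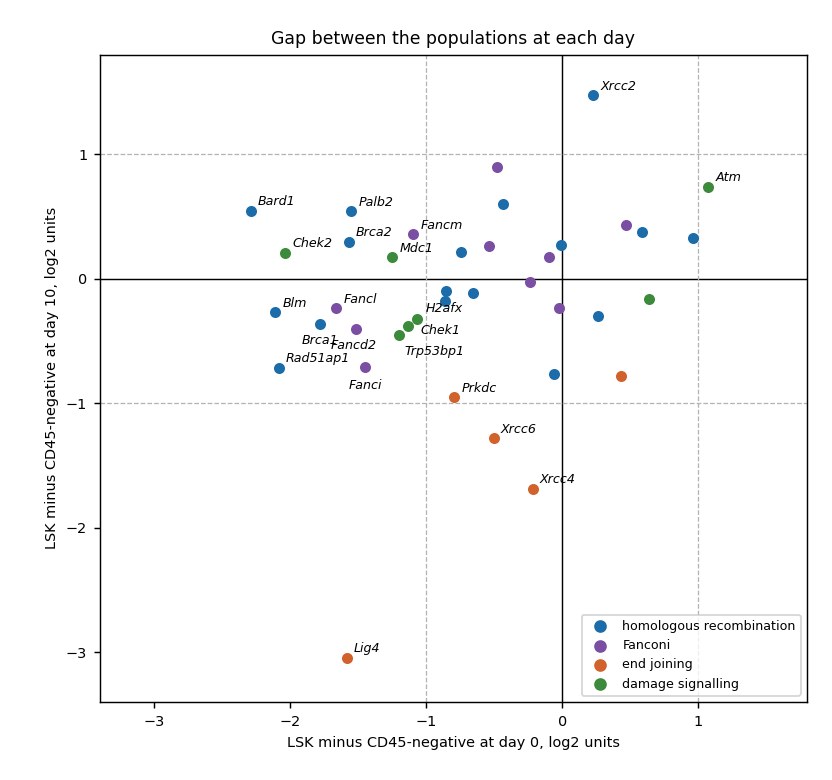
LSK minus CD45-negative difference at day 10 against that at day 0, in log2 units, for 39 repair genes coloured by role, with dashed lines at 2-fold and names where a difference is large. Most recombination, Fanconi and signalling genes lie left of 0 and near the horizontal axis, while all 5 end joining genes lie at -0.78 or below at day 10, with Lig4 lowest at -3.04; spike-in scaling would move all points 1.64 to the right and 1.64 down.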

How the data were processed

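Each of 4 sorted cell samples was hybridised to 1 Agilent mouse 1-colour array, from 500 ng of total RNA labelled with Cy3 after oligo-dT priming, per the labels. The deposited spot files hold fluorescence intensity values, per the file headers made by Agilent Feature Extraction 10.5.1.1, with background subtracted and spatial trends removed in the processed signal; the array design refers to build mm9. The deposited flags for detection, outliers and control type are neither signals nor ratios (other). A deposited table of the whole series has log2 values, which equal the log2 processed signal minus 1 constant per array, within 0.001 for at least 99.977% of probes.

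Control spots and outlier spots were removed, which left out 117 probes and no probe of the 39 genes. Spots of 1 probe were averaged as log2 processed signals, and each array was shifted to put its 75th percentile at 0. The probe with the highest average across arrays stands for a gene, which enters a comparison where that probe is well above background on both arrays. All fits of scale used the whole table. Alternatives were normexp background correction (offset 50, limma 3.58.1, R 4.3.3), quantile and cyclic loess normalization, shifts by the median, by probes detected on all arrays, by 8 spike-in probes and by 8 housekeeping genes, the deposited table, other detection filters, the mean over a gene's probes and a 1.5-fold threshold. The counting was tested on simulated data. Number of arrays limits the precision of all values.

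Levels on all arrays are given for members at least 2-fold apart between the days in either population and, in each role, for the member with the highest mean and the one nearest to 0 between the days in CD45-negative cells. Of other lists the 2 genes with the largest difference are named, except 1 gene that is not reported here, with Ptprc, Mki67 and Cdkn1a; Kit and Ly6a, also in that rule, had CD45-negative differences of 0.42 and 3.24. The members, lists and motifs were chosen with earlier results of these data known. Symbols were matched to RefSeq by accession for all 39 members, and H2afx is now H2ax. The probe sequences printed have at least 1 forward reading frame without a stop.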

Additional observations from a re-analysis of the deposited data

Results flagged for a closer look

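Bard1 and Fancm had differences between the days of opposite sign in the 2 populations, each beyond 1.5-fold. Bard1 was 0.997 log2 units higher at day 10 in LSK cells and at -1.84 in CD45-negative cells, a difference between the populations of -2.84. Fancm was 0.83 higher in LSK cells and at -0.62 in CD45-negative cells, a difference of -1.45. With 1 array per group the difference between the populations was not tested for either gene, and the sign in CD45-negative cells turns with spike-in scaling. Normexp correction left Bard1 at 0.53 in LSK cells and Fancm at -0.37 in CD45-negative cells, and median centring left the latter at -0.15, each short of 1.5-fold.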

How the results depend on the processing

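No paired analysis was possible because each group has 1 array, and for the same reason no replicate could be left out; depth in the sense of counts does not exist here, and 1 array per group limits every value. A median or a difference was taken as moved where it shifted by more than 0.150 log2 units, the spread of a difference between spots of 1 probe. A count was taken as moved where it changed by more than 1.5-fold, or to or from none, so smaller changes in counts are not all listed. Shifts change all differences of a comparison alike: the CD45-negative day difference moved by 0.46 with median centring, 3.13 with spike-in scaling and -0.83 with housekeeping gene scaling.

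Spike-in scaling reversed most. In CD45-negative cells between the days it gave 38 members higher and 0 lower, medians of 2.53 for recombination, 2.43 for Fanconi, 4.25 for end joining and 2.56 for signalling genes, and values of 1.74 for Brca1, 1.30 for Brca2, 1.75 for Rad51ap1, 1.84 for Fancc, 1.72 for Fancd2, 2.09 for Fanci, 1.71 for Fancl, 1.11 for Blm, 1.23 for Palb2, 1.29 for Bard1, 0.95 for Chek2 and 1.96 for Mdc1. In LSK cells its medians were -0.10 for recombination, -0.16 for Fanconi, -0.22 for end joining and -4.66e-05 for signalling genes. For LSK against CD45-negative cells at day 0 it gave 18 higher and 0 lower, with 0.072 for Brca2, 0.13 for Fancd2, 0.19 for Fanci, 0.55 for Fancm, 0.094 for Palb2, 0.060 for Lig4, 0.51 for Chek1, 0.57 for H2afx, 0.44 for Trp53bp1 and 0.39 for Mdc1. At day 10 it gave 0 higher, 36 lower and -0.17 for Xrcc2, and 10 members then had a smaller gap at day 10.

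Housekeeping gene scaling gave 2 members higher in LSK cells at day 10, with medians of 0.24, 0.18, 0.12 and 0.34 for recombination, Fanconi, end joining and signalling genes. In CD45-negative cells it gave 0 higher and 24 lower, with medians of -1.43, -1.54, 0.28 and -1.40 in the same order. Between populations it gave 0 higher at day 0 and 6 higher at day 10. Median centring gave 1 member higher in LSK cells, 7 higher and 5 lower in CD45-negative cells with medians of -0.14, -0.24, 1.58 and -0.10, and 8 lower at day 10 between populations.

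Normexp correction moved the CD45-negative medians of Fanconi, end joining and signalling genes to -0.40, 0.88 and -0.32, the gap between end joining and recombination to 1.501, and the day 0 counts to 0 higher and 10 lower. It also gave 3 members higher and 9 lower between the days in CD45-negative cells, a change too small to be taken as moved. The 3 higher were Xrcc6, Lig4 and Atr, so they were not all end joining genes. Quantile normalization gave 1 member higher in LSK cells, an end joining median of 1.33 and a gap of 1.94. Cyclic loess gave a gap of 1.90 and 0 higher at day 0. The mean over the probes of a gene gave a recombination median of -0.85, a gap of 1.97 and 2 higher at day 0, as did the percentile over probes detected on all arrays for the last count. The deposited table gave 1 member higher in LSK cells, Bard1 lying at the threshold. At 1.5-fold, 3 members were higher in LSK cells, 19 lower in CD45-negative cells, 4 higher at day 0, and 4 higher and 8 lower at day 10. The detection filter could not bear on the members, since each was above background on all arrays by its main probe. Without it, with the filter on all arrays, or with members at their bound, member counts and role medians therefore could not change. The median of all genes could: without the detection filter it was -0.65 for the days in CD45-negative cells and -0.36 between populations at day 0, since undetected genes then enter. The cause of each shift between scalings was not tested.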
